A study of Mus musculus with 142 samples.

Results

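Dppa2 and Dppa4 are neighbouring genes on mouse chromosome 16, and their replication timing (RT) was described here in every deletion allele of a set of CRISPR-edited mouse embryonic stem cells (mESCs). In the mm10 build, the GENCODE M21 annotation places Dppa4 (ENSMUSG00000058550.15) at chr16:48283733-48294237 and Dppa2 (ENSMUSG00000072419.5) at chr16:48303908-48319723, both on the plus strand. RT was given for windows of 50 kb, and the members are the 2 windows that hold these genes, of 49264 windows in the table. The window that starts at chr16 position 48250001 holds all of Dppa4 and is called the Dppa4 window, and the next one, from 48300001, holds all of Dppa2 and is called the Dppa2 window. The mean of both windows is written as the value at Dppa2/4. The windows were chosen by position, not by their RT.

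The protein products of Dppa2 and Dppa4 bind DNA as partners, mark pluripotent cells, and are known for switching on genes of the early embryo. Genome replication follows a temporal order, and chromosome domains that replicate early are mostly open and transcribed, whereas late domains are mostly silent. The domain around Dppa2/4 is early in mESCs and is known to become late when these cells differentiate. Stretches of DNA inside it that are needed for early replication have been called early replication control elements (ERCEs), and the ones here carry the names A, B and C. OSN marks a site bound by the pluripotency factors OCT4, SOX2 and NANOG, and TSS marks a transcription start site.

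F121-9 mESCs were used throughout. They come from hybrid mice with one homolog of each chromosome from the castaneus subspecies (CAST) and the other from strain-129 mice (the musculus homolog), so that reads over a variant base can be assigned to a homolog. All cells were grown in 2i + LIF, labelled with BrdU for 2 h and sorted into early and late S phase, and RT is the log2 ratio of early to late reads, log2(E/L), so that a value above 0 is early and a fall is a delay. The table held 66 libraries of 53 clones in 26 edited lines, with 28 deletion genotypes on 78 deletion alleles, 63 of them on the musculus homolog and 15 on CAST. The wild-type (WT) allele of the same library was the control, and for the 25 deletion alleles without one (those of the 12 libraries with a deletion on both homologs, and 1 allele of ∆COSN1.2.8k) the control was the mean of all WT alleles. Every clone descends from one parental line, cultures of a clone are repeats of that clone, and ∆COSN123 was a single clone with 4 cultures. The paper reports that ∆COSN12 and ∆COSN123 were made in the ∆COSN1 line. It also reports that pieces of A and B were then deleted in the ∆COSN123 background. Clones of genotypes with COSN123 in their name thus share an edited founder and are not independent edits of F121-9. The table used here holds no RNA, so the cell type could not be checked against marker genes. The number of reads behind each value is unknown, since the table holds only ratios.

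In 14 of the 28 deletion genotypes a site inside Dppa2 was removed (A or Z), and in the other 14 all deletions lay in B or C. Z is a 574 bp piece at chr16:48303458-48304031 that takes the start and exon 1 of the transcript Dppa2-202. A is a 3619 bp piece at chr16:48308248-48311866 that takes the start of the transcript Dppa2-201 and exons with coding sequence. AOSN is a 662 bp part of A at chr16:48308688-48309349 and is intronic, and ATSS is a 666 bp part of A at chr16:48309960-48310625 with the Dppa2-201 start and exon 2 of Dppa2-202. ATSS is also reported to overlap an OSN site, so AOSN is not the only OSN site of A. No deletion touched Dppa4, so Dppa4 and its window were intact on every deletion allele. B begins 77.1 kb to the right of the end of Dppa2 at chr16:48396808-48443056, and C begins 261.6 kb to the right at chr16:48581334-48620351. B overlaps the genes Gm5485 and Morc1, and C lies in Morc1. The smaller pieces of B (BOSN1, BTSS, BOSN2) are between 140 and 496 bp long, and those of C (COSN3, COSN2, CTSS, COSN1) are between 539 and 2049 bp long. BOSN12 stands for both OSN sites of B, and COSN12 and COSN123 for the numbered OSN sites of C. CL20k is the left 20012 bp of C, and CR11.8k, CR13.4k and CR14.6k take 11827, 13398 and 14654 bp of its right part. The labels name COSN1.2.8k without coordinates.

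The guide RNAs whose cuts bound Z, A, AOSN and ATSS are shown because they set which part of Dppa2 was lost. Each is written 5′ to 3′ as a 23-base genomic target with the PAM (NGG) in capitals, and all matched mm10 exactly at the stated place. The Z guides lie at chr16:48303452-48303474 and chr16:48304026-48304048, and the A guides at chr16:48308242-48308264 and chr16:48311861-48311883, all on the minus strand. The AOSN guides lie at chr16:48308671-48308693 (plus strand) and chr16:48309344-48309366 (minus strand). The ATSS guides lie at chr16:48309943-48309965 and chr16:48310609-48310631, both on the plus strand.
Z-OSN-G1: ttactatgtagcagagacaaAGG
Z-OSN-G2: gtattgggatcaaagcgagcTGG
A-G1: gggttaatgtgactgggcagTGG
A-G2: gtgcacctttaaccagctgcAGG
A-OSN-1-G1: cactgtagctgtcaccaaagAGG
A-OSN-1-G2: aaagggaacctagttgcctaAGG
A-TSS-G1: tagacactctgtaacacagaAGG
A-TSS-G2: ctggcttccgaggaactgcgTGG

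Short letters read by OCT4 and SOX2 were searched on both strands of these pieces. The octamer ATGCAAAT had no exact match in Z, AOSN, ATSS or the whole of A, and the SOX core AACAATG had 1 match, on the minus strand of AOSN at chr16:48308786-48308792, and none in Z or ATSS. The AACAATG letters occur in 19268 of 143526 stretches of chromosome 16 as long as AOSN. The match is printed below with the letters in capitals as read on the plus strand, from chr16:48308775-48308803.
AOSN SOX core: ctctccagcccCATTGTTtgtcttttttt

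WT alleles were early at Dppa2/4. Over the 53 WT alleles with values, RT at Dppa2/4 had a lowest value of 0.57, a median of 0.98 and a highest value of 1.26 (mean 0.96 ± 0.13, SD). The Dppa2 window was 0.08 ± 0.10 (SD, n = 53) earlier than the Dppa4 window on WT alleles, and on the 78 deletion alleles this difference was also 0.08 ± 0.10. On the mean WT profile, 72.95% of all windows in the genome were later than the Dppa4 window and 75.19% were later than the Dppa2 window. The 50 CAST WT alleles had a mean of 0.96 ± 0.14 and the 3 musculus WT alleles a mean of 0.97 ± 0.06. Within the 4 ∆CTSS libraries, where the homologs could be compared with a deletion on either one, musculus minus CAST at Dppa2/4 was -0.22 ± 0.19 (SD, n = 4). These libraries are cultures of only 2 clones, and the means of the WT alleles, 0.97 and 0.96, show no such difference. Whether it belongs to the homologs or to these clones was not tested. Most deletions were on musculus and most controls were CAST, so a homolog difference of this size cannot be told apart from a small effect of a deletion.

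Deletion alleles spanned a wide range at the same genes. RT at Dppa2/4 was below 0 in both windows on 15 of 78 deletion alleles, and on none of the WT alleles, whose lowest window was 0.34. The deletion allele was later than its control in both windows in 63 of 78 cases, and in 21 of 28 genotypes every library was later in both windows. The mean difference ran from -1.73 in ∆A.B.COSN123 to 0.10 in ∆COSN1, with a median of -0.40 over the 28 genotypes. With limma fitted over all 38104 windows, 11 of 28 genotypes were called later, which here means a Benjamini-Hochberg adjusted p of at most 0.05 and a negative difference in both windows. These were 8 of the 14 genotypes that removed A or Z and 3 of the 14 with B or C deletions alone. With the homolog difference of the ∆CTSS libraries subtracted, 7 were called, and ∆A.BOSN1.COSN123, ∆Z.B.C, ∆COSN123 and ∆BOSN1.COSN123 were not (adjusted p = 0.124, 0.275, 0.174 and 0.383, the higher of both windows).

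**Figure D1:**
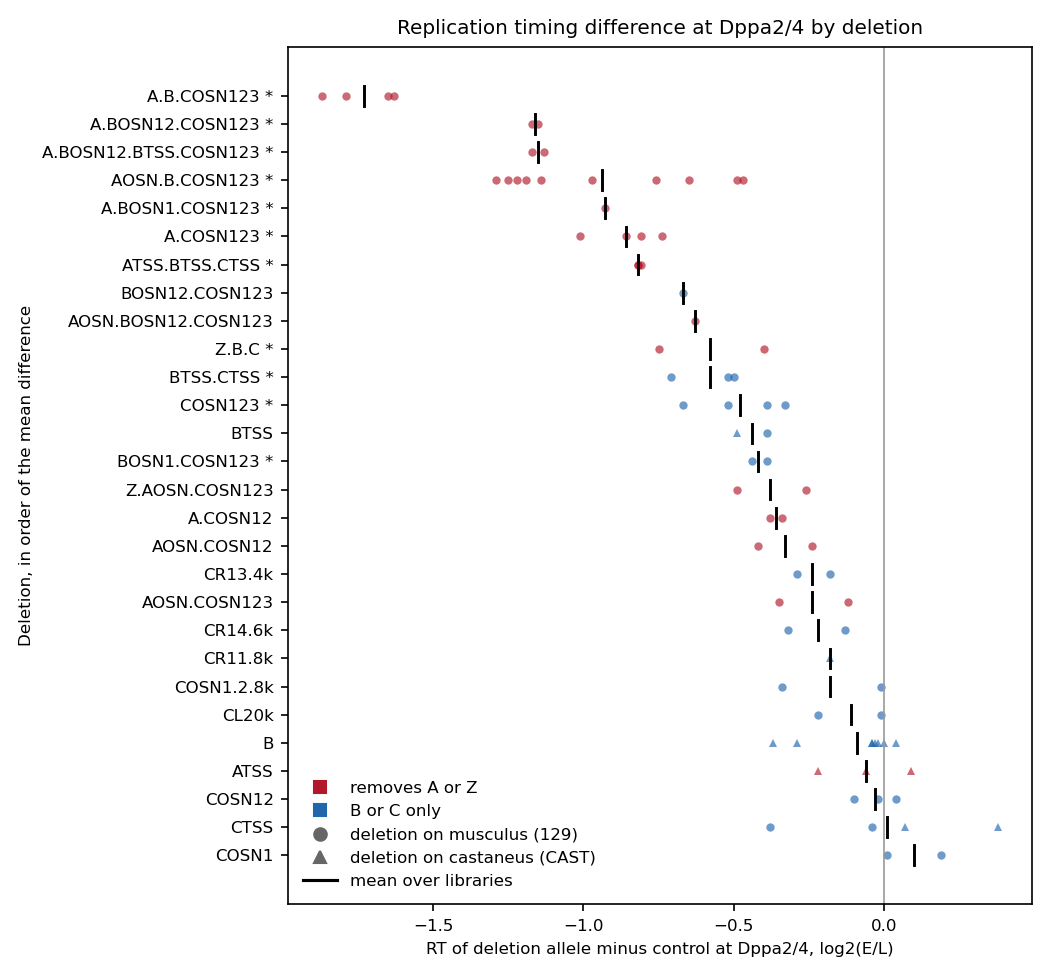
RT of the deletion allele minus its control at Dppa2/4 (mean of both windows, log2(E/L)) for the 28 deletion genotypes, in order of the mean; each point is a library, circles are deletions on musculus and triangles on CAST, black bars are means, and an asterisk marks the 11 genotypes called later. The 7 genotypes at the top all remove A or Z, and the libraries of ∆A.B.COSN123, between -1.87 and -1.63, do not overlap those of any other genotype.

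The latest alleles were those that lost A, B and all OSN sites of C together. In ∆A.B.COSN123 the deletion allele had an RT at Dppa2/4 of -0.88 and -0.70 in the cultures of clone 2E.1 and -0.69 and -0.67 in those of clone 5A.7. The controls stood at 0.99 and 1.09 for clone 2E.1 and at 0.96 for clone 5A.7, which has no WT allele. The control was early and the deletion allele late in all 4 libraries, and the groups did not overlap. The difference was -1.73 ± 0.11 (SD, n = 4), with -1.71 ± 0.10 (SE) in the Dppa4 window and -1.76 ± 0.10 in the Dppa2 window (limma adjusted p = 1.05e-21 and 3.24e-22). In the same contrast 12.7% of all windows tested were called later.

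Genotypes that lost A and COSN123 but kept most of B had a smaller mean delay at Dppa2/4. The contrast of ∆A.BOSN12.COSN123 with ∆A.B.COSN123 was not called, however (limma adjusted p = 0.156 and 0.192). ∆A.BOSN12.COSN123, which keeps B apart from its OSN sites, had differences of -1.15 and -1.17 in its 2 clones and RT values of -0.14 and -0.25. ∆A.BOSN12.BTSS.COSN123, with the start site in B removed as well, had differences of -1.13 and -1.17 in 2 cultures of 1 clone and RT values of -0.12 and -0.22. Both genotypes were late at Dppa2/4 in every library, and their values overlapped. Both were called later, with adjusted p of 1.2e-07 or lower in each window, against background shares of 9.24% and 10.2%. The 2 cultures of ∆A.BOSN12.BTSS.COSN123 entered this fit as separate units, although they are 1 clone. With culture number added to the fit as a block, its limma adjusted p was 0.1 and the call was lost. That fit cannot test the call, because only some genotypes have numbered cultures and the block is not separable from genotype. It set these genotypes at the level of culture 4, which among them only ∆COSN123 has.

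∆AOSN.B.COSN123, which loses only AOSN within A, differed between clones. Its 10 libraries had a lowest difference of -1.29, a mean of -0.94 ± 0.32 (SD) and a highest of -0.47. The means of the clones were unequal: clones 2A.2 and 3C.4 had means of -1.19 and -1.20, clones 5A.2 and 1A.4 had -0.97 and -0.86, and clone 5A.6 had -0.48. The spread lay within a clone as well, since the cultures of clone 5A.2 had differences of -1.29 and -0.65, with RT values of -0.23 and 0.38 at Dppa2/4. In clone 1A.4 the WT allele of the second culture was itself at 0.57, the lowest WT value of all, so that its difference of -0.76 was smaller than its RT of -0.18 would give against the mean WT allele. The genotype was called later (adjusted p = 1.45e-17 and 5.74e-20), against a background share of 23.6%.

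Removal of A with less of B followed in the order. ∆A.COSN123 had RT values of 0.14, 0.25, 0.28 and 0.21 in its 4 clones, against WT alleles at 1.15, 1.11, 1.02 and 1.03. These alleles were delayed to near the middle of S phase and stayed above 0, and no deletion allele overlapped a WT allele. The difference was -0.86 ± 0.11 (SD, n = 4; adjusted p = 4.85e-09 and 2.63e-08; background 11.5%). ∆A.BOSN1.COSN123, with 1 library, had an RT of 0.33 against the highest WT allele of all at 1.26, a difference of -0.93 (adjusted p = 0.022 and 0.0239; background 0.127%). ∆ATSS.BTSS.CTSS, which removes start sites and with ATSS also an OSN site, had RT values of 0.13, 0.15 and 0.14 in 3 clones and a difference of -0.82 ± 0.01 (SD, n = 3; adjusted p = 1.93e-08 and 3.65e-07; background 24.9%). These clones have no WT allele, and the mean WT allele, at 0.96, was the control for all, so this SD holds no spread between controls. The SD of their difference on other chromosomes was 0.41, 0.40 and 0.33, against a median of 0.30 over all deletion alleles.

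The remaining genotypes that were called later, those with B or C deletions alone and ∆Z.B.C, which removes Z, were milder. ∆BTSS.CTSS had differences of -0.71, -0.52 and -0.50 in 3 clones (adjusted p = 0.000196 and 0.000212; background 9.93%). ∆COSN123 had differences of -0.52, -0.67, -0.33 and -0.39 in the cultures of its clone, with a larger delay in the Dppa4 window (-0.54 ± 0.10, SE) than in the Dppa2 window (-0.42 ± 0.10). All deletion alleles of these genotypes stayed early, between 0.25 and 0.52. ∆COSN123 was called (adjusted p = 4.12e-05 and 0.00102; background 13.6%), and with its 4 cultures averaged to 1 clone the call was lost (adjusted p = 0.304). ∆BOSN1.COSN123 had -0.44 and -0.39 in 2 clones (adjusted p = 0.0286 and 0.0291; background 16.3%), and without either clone the adjusted p was 0.256 or 0.355. ∆Z.B.C, which keeps all of A, had -0.75 and -0.40 (adjusted p = 0.00834 and 0.00348; background 6.81%), and without either clone the adjusted p was 0.0969 or 0.317.

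Some genotypes missed the call in 1 window only. ∆BOSN12.COSN123, a single library, had an RT of 0.21 and a difference of -0.67 (adjusted p = 0.0339 in the Dppa4 window and 0.0514 in the Dppa2 window; background 3.52%). ∆AOSN.BOSN12.COSN123, also a single library, had an RT of -0.05, below that of ∆BOSN12.COSN123, but its WT allele stood at only 0.58. Its difference was therefore -0.63 against its own WT allele (adjusted p = 0.0869 and 0.0044; background 7.5%) and -1.01 against the mean WT allele. A second labelled clone of each of these genotypes was not analysed here.

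The other 15 genotypes were not called later. Among those that removed a piece of A or Z, the differences were -0.49 and -0.26 in ∆Z.AOSN.COSN123 (background 5.5%), -0.38 and -0.34 in ∆A.COSN12 (4.9%), -0.42 and -0.24 in ∆AOSN.COSN12 (9.13%), and -0.35 and -0.12 in ∆AOSN.COSN123 (7.37%). ∆ATSS, on CAST, had -0.22, -0.06 and 0.09 in 3 clones (17%). These alleles all remained early at Dppa2/4, with RT between 0.36 and 1.04. ∆BTSS had -0.39 on musculus and -0.49 on CAST, with RT at 0.47 on both homologs (0.0427%).

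Apart from ∆COSN123 and ∆BTSS, described above, deletions in C alone or B alone had differences at Dppa2/4 between -0.38 and 0.38. The 2 libraries of ∆CR13.4k had -0.29 and -0.18 (background 6.91%), those of ∆CR14.6k -0.32 and -0.13 (4.84%), those of ∆COSN1.2.8k -0.34 and -0.01 (5.46%), and those of ∆CL20k -0.22 and -0.01 (5.42%). The single library of ∆CR11.8k, on CAST, had -0.18 (0.0604%). Of these differences, none on musculus exceeded the size of the homolog difference by more than the pooled SD between libraries of a genotype, which was 0.19. For ∆CR11.8k, on CAST, the homolog difference runs the other way, and with it subtracted the value was -0.40. ∆COSN12 had 0.04, -0.02 and -0.10 (12.9%), and ∆COSN1 had 0.19 and 0.01 (6.32%). ∆CTSS had -0.38 and -0.04 in the clone deleted on musculus and 0.38 and 0.07 in the clone deleted on CAST, so its mean of 0.01 joins opposite signs (0.00525%). ∆B, on CAST, had a lowest value of -0.37, a mean of -0.09 ± 0.15 (SD, n = 8) and a highest value of 0.04 (2.46%). Its 2 lowest libraries were those of clone 5A.7, whose other homolog carried ∆A.B.COSN123, and the means of its other 3 clones lay between -0.04 and 0.01.

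**Figure D2:**
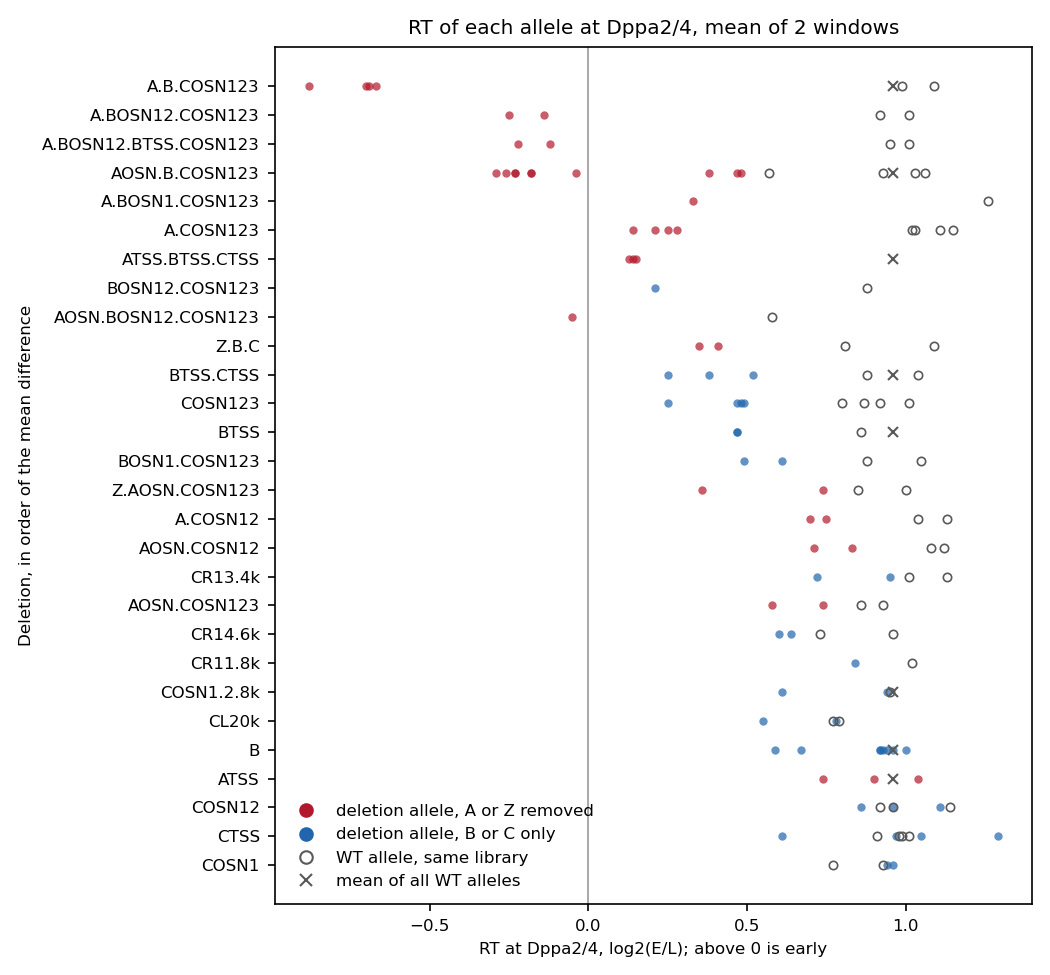
RT at Dppa2/4 (mean of both windows, log2(E/L), above 0 is early) of each deletion allele (filled), of the WT allele of the same library (open circles) and of the mean of all WT alleles where it served as control (crosses), by genotype in the order of the mean difference. Deletion alleles fall below 0 in 5 genotypes on average, while all WT alleles stay between 0.57 and 1.26.

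The order of the genotypes had gaps beyond the spread between libraries only at its late end. Of the 27 gaps between neighbours in the order, 2 were larger than the pooled SD between libraries, namely 0.58 between ∆A.B.COSN123 and ∆A.BOSN12.COSN123 and 0.21 between ∆A.BOSN12.BTSS.COSN123 and ∆AOSN.B.COSN123, whose libraries overlapped. The libraries of 24 of the 27 neighbouring pairs overlapped. The 7 genotypes with the latest means all removed A or Z, and 1 of the 7 with the earliest means did. The mean over A or Z genotypes was -0.73 ± 0.45 (SD, n = 14) and over B or C genotypes -0.25 ± 0.23 (SD, n = 14), but A or Z was often removed on top of B and C pieces, so these means do not compare like with like. Among genotypes that lacked all OSN sites of C, the median was -0.89 over 10 with A or Z removed and -0.42 over 5 without. Among genotypes that kept such a site, the medians were -0.34 over 4 and -0.11 over 9. In the set that lacked all OSN sites of C, a larger share of the genotypes with A or Z removed also lost pieces of B. Its medians are therefore not matched for B.

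To set the removal of a site against the same allele with that site present, 27 pairs of genotypes were compared that differ by 1 named piece or, in 1 pair, by both OSN sites of B, 13 for a piece of A or Z and 14 for a piece of B or C. The difference between the members of a pair is called a step, and a step was called when both windows had a limma adjusted p of at most 0.05. Steps of A or Z ran from -0.79 to 0.24 with a median of -0.33, and 11 of 13 were below 0. Steps of B or C ran from -0.58 to 0.09 with a median of -0.24, and 11 of 14 were below 0. In each family 1 step was called.

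The called step of A was the removal of the rest of A beyond AOSN, where B and COSN123 were already gone. That rest includes ATSS and the OSN site in it. The 4 libraries of ∆A.B.COSN123 lay between -1.87 and -1.63 and the 10 of ∆AOSN.B.COSN123 between -1.29 and -0.47, so the genotypes did not overlap. The step was -0.83 (95% interval -1.06 to -0.59) in the Dppa4 window and -0.76 (-0.99 to -0.52) in the Dppa2 window (limma adjusted p = 1.79e-05 and 7.06e-05). Only 0.0473% of windows were called in this contrast, in either direction, and both genotypes were on musculus. The exact two-sided permutation test over libraries gave p = 0.002, with 0.000999 as the smallest p it allowed, and 0.0539 after adjustment over the 27 steps. With clones as units, 2 against 5, the exact p was 0.0476, and with only the clones that had a WT CAST allele the step was -0.91 (exact p = 0.0667, the smallest possible). Here ∆A.B.COSN123 removes 3619 bp of A in place of 662 bp.

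The same piece of A, the part beyond AOSN, had unequal steps where other sites were kept. It was -0.62 with only COSN123 absent, from ∆AOSN.COSN123 at -0.12 and -0.35 to ∆A.COSN123 between -1.01 and -0.74 (adjusted p = 0.498 and 0.559; exact p = 0.0667, the smallest possible; 0% of windows called). It was -0.53 with BOSN12 and COSN123 absent (adjusted p = 0.194 and 0.495; background 2.48%), where the comparison rests on the single library with the late WT allele, and the RT of the deletion alleles themselves differed by -0.15. With only COSN12 absent it was -0.03 (adjusted p = 1 in both windows; background 0.0167%), with 95% intervals of -0.44 to 0.36 and -0.42 to 0.38. The step of this piece was thus below -0.5 in 3 settings and near 0 where COSN3 was present, but against the mean WT allele the 3 steps were -0.73, -0.44 and -0.15, and the difference between steps was not tested.

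The whole of A gave steps of one sign in 4 settings. It was -0.38 with COSN123 absent, where the 4 clones of ∆A.COSN123 and the 4 cultures of 1 ∆COSN123 clone did not overlap (limma adjusted p = 0.751 and 0.64, and 1 with clones as units; 0% of windows called). It was -0.33 with COSN12 absent (adjusted p = 0.856 and 0.809; background 0.0584%), -0.51 with BOSN1 and COSN123 absent (adjusted p = 0.991 in both windows; 0%) and -0.49 with BOSN12 and COSN123 absent (adjusted p = 0.886 and 0.786; background 0.00556%). Against the mean WT allele the same steps were -0.20, -0.25, -0.22 and -0.40. The intervals of these steps were wide, and none was called.

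AOSN by itself had steps of no common sign. Its step was 0.24 with COSN123 absent, with 95% intervals of -0.07 to 0.62 and -0.13 to 0.55 (adjusted p = 1 in both windows; 0%). It was -0.30 with COSN12 absent (adjusted p = 0.722 and 0.622; background 0.195%) and 0.04 with BOSN12 and COSN123 absent (adjusted p = 0.893 and 0.945; background 0.914%), a comparison of 1 library with 1 that became -0.26 against the mean WT allele. The WT allele of ∆AOSN.BOSN12.COSN123 stood at 0.58. Z, added to ∆AOSN.COSN123, had a step of -0.14 with overlapping libraries (adjusted p = 1 in both windows; background 0.00525%). ATSS, added to ∆BTSS.CTSS, had a step of -0.24 without overlap between 3 and 3 clones (exact p = 0.1, the smallest possible; adjusted p = 0.242 and 0.482; background 11.1%).

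**Figure D3:**
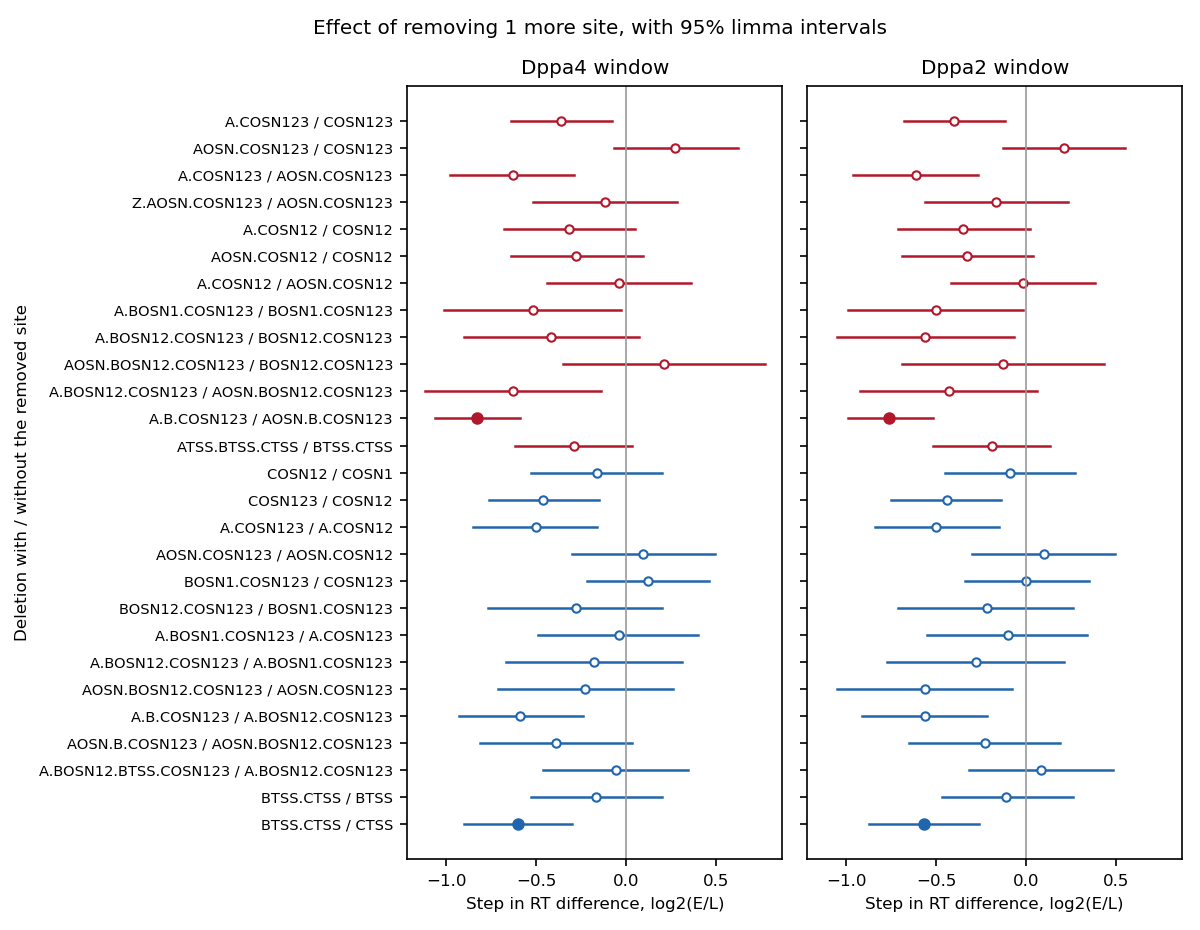
Steps in RT difference (log2(E/L)) when 1 more piece is removed, in the Dppa4 window (left) and the Dppa2 window (right), with 95% limma intervals; red rows remove a piece of A or Z and blue rows a piece of B or C, and filled points mark the 2 called steps. The step from ∆AOSN.B.COSN123 to ∆A.B.COSN123 is the lowest in both windows, at -0.83 and -0.76.

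Pieces of B and C lie at a distance from Dppa2/4, and their steps there covered a range that overlapped with that of A. COSN3, which lies 286.6 kb to the right of the end of Dppa2, had a step of -0.45 on its own background of ∆COSN12, where RT at Dppa2/4 went from 0.96, 1.11 and 0.86 to between 0.25 and 0.49 in the cultures of 1 clone (limma adjusted p = 0.191 and 0.21, and 1 with clones as units; background 0.228%). With A also absent the step of COSN3 was -0.50 (adjusted p = 1 in both windows; background 0.00834%), and with AOSN absent it was 0.09 (adjusted p = 1 in both windows; background 0.0395%). COSN2 had a step of -0.13 (adjusted p = 0.963 and 0.987; background 0.0657%).

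Within B, the steps of the part outside the OSN sites and of the OSN sites depended on the control. Removal of the part outside the OSN sites with A and COSN123 absent took RT at Dppa2/4 from -0.14 and -0.25 to between -0.88 and -0.67, a step of -0.58 with no overlap (limma adjusted p = 0.156 and 0.192; background 0.0683%). With AOSN in place of A the step was -0.31 and the libraries overlapped (adjusted p = 0.353 and 0.681; background 4.73%). BOSN1 had steps of 0.06 with A present and -0.07 with A absent (adjusted p = 0.835 or higher; 0% of windows called in both). BOSN2 had -0.25 with A present and -0.23 with A absent (adjusted p = 1 in both; 0% of windows called in both). Both BOSN sites together had a step of -0.39 where AOSN and COSN123 were absent (adjusted p = 0.87 and 0.302; background 1.97%). The last step and the one of -0.31 rest on the single library of ∆AOSN.BOSN12.COSN123, whose WT allele stood at 0.58. Against the mean WT allele the step of both BOSN sites was -0.71, and those of the rest of B were -0.54 with A absent and 0.04 with AOSN absent.

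The called step of B or C was that of BTSS where CTSS was absent, at -0.60 (95% interval -0.90 to -0.30) and -0.57 (-0.87 to -0.26) in the 2 windows (adjusted p = 0.0107 and 0.0154; background 7.47%). Its reference, ∆CTSS, joins a clone deleted on musculus with a clone deleted on CAST, so the homolog difference does not cancel in it. The exact test over libraries, which counts cultures of the 2 ∆CTSS clones apart, gave p = 0.0571, where 0.0286 was the smallest possible. The call was lost without either culture of the CAST clone (adjusted p = 0.166 and 0.113), without ∆BTSS.CTSS clone C11 (0.0928) and with the homolog difference subtracted, which gave -0.37 (0.177). That difference was estimated from the ∆CTSS libraries, the reference of this step, so its subtraction is not a separate check. BTSS added to ∆A.BOSN12.COSN123 had a step of 0.01 (adjusted p = 1 in both windows; background 0.241%). CTSS added to ∆BTSS had a step of -0.14 (adjusted p = 0.999 in both windows; background 0.0054%).

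Libraries with a deletion on both homologs allowed the alleles to be read in the same cells. In all 12 such libraries the musculus allele, which carried more deleted pieces, was later at Dppa2/4, and its RT minus that of the CAST allele lay between -1.36 and -0.22. The musculus and CAST alleles stood at -0.69 and 0.67 and at -0.67 and 0.59 in the cultures of clone 5A.7 (∆A.B.COSN123 and ∆B). They stood at 0.13 and 0.74, 0.15 and 0.90, and 0.14 and 1.04 in the clones with ∆ATSS.BTSS.CTSS on musculus and ∆ATSS on CAST. The smallest difference, -0.22, was that of ∆BTSS.CTSS and ∆BTSS in clone C11, which is the size of the homolog difference in the ∆CTSS libraries.

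The RT of the WT homolog differed between these classes by less than its spread. Averaged by genotype, the CAST WT allele stood at 0.98 ± 0.16 (SD, n = 12) where its partner lacked A or Z and at 0.92 ± 0.08 (n = 12) where its partner lacked only B or C sites, a difference of 0.06 (two-sided permutation test, p = 0.3).

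In none of the 28 genotypes was a Dppa2/4 window the one with the lowest difference. Dppa2/4 makes up 2 of the 40 windows compared. Where differences were small, as in ∆CTSS with a lowest window of -0.22, the place of the lowest window may be noise. Among the 40 windows of the domain around Dppa2/4, the window with the lowest difference lay to the right of Dppa2/4 in 20 genotypes and to the left in 8. More of the 40 windows lie to the right than to the left, so position alone would place more of these windows to the right. ∆A.COSN123 and ∆ATSS.BTSS.CTSS had it 100 kb to the left of the Dppa2 window, where the difference in ∆A.COSN123 was -0.96. ∆COSN123, ∆A.BOSN1.COSN123 and ∆BOSN1.COSN123 had it 450 kb to the right, at -1.21, -1.04 and -0.97, in a window that overlaps Trat1, a T-cell receptor adaptor gene. The delay at Dppa2/4 was 89.2% of the lowest window in ∆A.COSN123 and 90.9% in ∆A.B.COSN123, but 39.6% in ∆COSN123. This share did not divide the genotypes by A, since it was 89.2% in ∆BTSS.CTSS and 80.6% in ∆BTSS, which keep A, and 42.5% in ∆Z.B.C, 26.4% in ∆AOSN.COSN12 and 13.2% in ∆ATSS. Because the profiles were smoothed over 300 kb, a window shares information with its neighbours, and a boundary finer than that cannot be read.

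**Figure D4:**
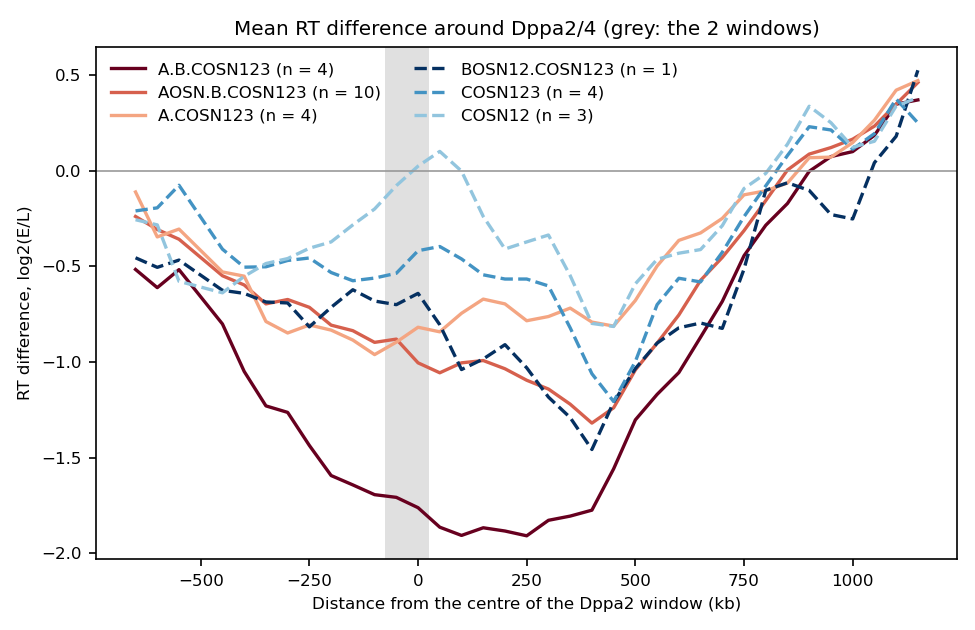
Mean RT difference (deletion allele minus control, log2(E/L)) against distance from the centre of the Dppa2 window in kb for 3 genotypes without A or AOSN (solid) and 3 with A intact (dashed); the grey band marks the Dppa4 and Dppa2 windows and n is the number of libraries. ∆COSN123 is lowest 450 kb to the right, at -1.21, while ∆A.B.COSN123 is near -1.7 over Dppa2/4 and beyond.

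The order of the genotypes at Dppa2/4 resembled that at the sites to the right. Over the 28 genotypes, Pearson's r of the mean difference at Dppa2/4 with that at the 2 windows that hold C was 0.88, with that at the window that holds most of B 0.91 and with the area between the profiles over the 40 windows 0.93. These values are descriptions over points that share libraries, controls, deleted pieces and smoothing. Ranks shifted by up to 10 places between Dppa2/4 and C. ∆AOSN.BOSN12.COSN123 was -0.63 at Dppa2/4 and -1.43 at C, and ∆A.BOSN12.BTSS.COSN123 was -1.15 and -1.79. ∆A.BOSN1.COSN123 (-0.93 and -0.65) and ∆BTSS.CTSS (-0.58 and -0.44) ran the other way.

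Most genotypes of either class were less delayed at Dppa2/4 than at C. The delay was larger at Dppa2/4 than at C in 3 of 14 genotypes of each class. The value at Dppa2/4 minus that at C was 0.23 ± 0.28 (SD, n = 14) for A or Z and 0.13 ± 0.16 (n = 14) for B or C, a difference of 0.10 (two-sided permutation test over genotypes, p = 0.261). Genotypes share pieces and so are not independent. As a share of the lowest window of the domain, the delay at Dppa2/4 was 56.77% ± 25.55 for A or Z and 33.79% ± 29.39 for B or C (two-sided permutation test over genotypes, p = 0.0361). The sign of this comparison thus depended on the scale. The B or C mean includes shares of -19.2%, -3.96% and 3.35% in ∆COSN1, ∆CTSS and ∆COSN12, which had little or no delay at Dppa2/4. The lowest share in A or Z was 13.2%, in ∆ATSS. Shares of genotypes without a delay do not show where an effect lies. For single steps, the step at Dppa2/4 was lower than that at C in 10 of 13 cases for A or Z and in 8 of 14 for B or C, but lower than that at B in 6 of 13 and 6 of 14.

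**Figure D5:**
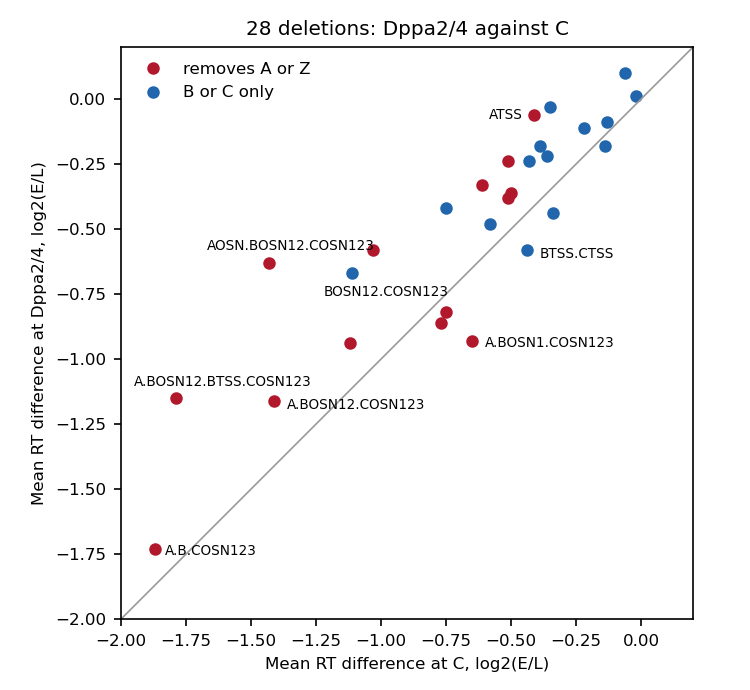
Mean RT difference at Dppa2/4 against that at the C windows (both log2(E/L)) for the 28 genotypes, red where A or Z is removed and blue where only B or C sites are; the grey line marks equal values. Points above the line are less delayed at Dppa2/4 than at C, as 22 of 28 genotypes are, and ∆BTSS.CTSS and ∆A.BOSN1.COSN123 lie below it.

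The Dppa4 and Dppa2 windows gave nearly the same order (r = 0.98 over 28 genotypes), with a largest shift of 5 ranks, although only the Dppa2 window contains deleted DNA. The largest split was in ∆AOSN.BOSN12.COSN123, at -0.49 in the Dppa4 window and -0.77 in the Dppa2 window. Each window taken alone had 12 genotypes called later. Of the genes to the right, Gm5485 and Morc1 had 12 and 13 genotypes called later in all of their windows. Trat1 had 19, Retnlb and Retnla, which encode secreted resistin-like proteins, had 20 each, and Retnlg had 18. Dzip3 had 12 and Cip2a 11, and none was called at Myh15, Ift57 or Cd47. In ∆COSN123 the delay was -0.42 at Dppa2 and -1.13 at Trat1, whereas in ∆A.COSN123 it was -0.82 and -0.80.

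Other genes of pluripotent cells, on other chromosomes, were read in the same way. At 14 such loci, among them Pou5f1, Sox2 and Nanog, which encode OCT4, SOX2 and NANOG, the difference in ∆A.B.COSN123 lay between -0.13 and 0.17. The SD of the mean difference over genotypes was between 0.08 and 0.24 at these loci and 0.43 at Dppa2/4. The lowest value was that of ∆ATSS or ∆ATSS.BTSS.CTSS, the alleles of the same 3 libraries, at 11 of the 14 loci. In ∆ATSS it was -0.63 at Nanog, -0.61 at Zfp42 and -0.46 at Pou5f1, and in ∆ATSS.BTSS.CTSS it was -0.46 at Prdm14. Dppa3, a gene of the germ line and early embryo, had 0.09 in ∆A.B.COSN123 and a range of -0.40 to 0.17 over all genotypes. Outside the domain, the windows most like Dppa2/4 over the 28 genotypes were chr5:67450001-67500000 (r = 0.74), chr19:25450001-25500000 (r = 0.65) and chr12:7450001-7500000 (r = 0.62), all without an annotated protein-coding gene and with SDs between 0.14 and 0.20.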

How the data were processed

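Early and late S-phase libraries of F121-9 mESC clones were processed by the authors, who trimmed reads (Trim Galore, cutadapt), aligned them with bowtie2 to an N-masked mm10 genome, split them by homolog with SNPsplit, and removed duplicates with Samtools. Reads were counted in 50 kb windows with bedtools; versions are not given in the sources used here. The deposited values are the log2 ratio of early to late reads, scaled and quantile-normalized by the authors and then smoothed by loess over 300 kb. Quantile normalization makes the genome-wide spread of all profiles alike, and smoothing spreads a local change over neighbouring windows. Depth cannot be recovered from these ratios.

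Columns were matched to labels by library name and homolog, and 5 labelled libraries were not analysed here. Repeat runs of 3 libraries were averaged. For each deletion allele the WT allele of the same library (otherwise the mean of all WT alleles, also where the WT allele had no chromosome 16 values) was subtracted. Windows with a value in at least 80% of the 78 deletion alleles were fitted in limma 3.58.1 with 1 coefficient per genotype, p-values were adjusted by the Benjamini-Hochberg method over 38104 windows (residual degrees of freedom 50), and steps were contrasts in this fit. Exact or, with over 100000 arrangements, sampled permutation tests (100000 resamples, two-sided) compared means. The fit was tested on simulated data. The rule for named genes took both members, all annotated protein-coding genes in and beside the domain and a list of 14 pluripotency loci. The members, pieces compared and lists were chosen with earlier results of these data known. Alternatives changed the control, unit, window, filter, prior, homolog correction and replicate block.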

Additional observations from a re-analysis of the deposited data

Results flagged for a closer look

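Among the 4 libraries of ∆A.B.COSN123, the RT of the deletion allele at Dppa2/4 in culture 1 of clone 2E.1, at -0.88, stood apart from the other 3, which lay between -0.70 and -0.67 (gap over range 0.85). Among the 4 cultures of ∆COSN123, culture 2 of clone A10 stood at 0.25 and the other 3 between 0.47 and 0.49 (gap over range 0.93). In all, 27 groups of 4 to 10 values were examined in this way, and about 1 in 20 is flagged by chance. The other results marked for a closer look are the 2 called steps, in which the effect of a deletion differed with 1 more piece removed. The step from ∆AOSN.B.COSN123 to ∆A.B.COSN123 was -0.79, and that from ∆CTSS to ∆BTSS.CTSS was -0.58, the latter with a reference that mixes deletions on both homologs.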

How the results depend on the processing

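The count of 11 genotypes called later at Dppa2/4 stayed between 10 and 15 under the other windows, filters, units, prior and control. It fell to 7 with the homolog difference subtracted. It was 8 with the replicate block, which cannot test these calls, as described below. Leaving out 1 library at a time gave 10 to 12. ∆A.B.COSN123, ∆A.BOSN12.COSN123, ∆A.COSN123, ∆ATSS.BTSS.CTSS and ∆BTSS.CTSS were called in all 7 settings of the fit. Steps of A or Z had 1 call in every setting and between 1 and 1 without each library. Steps of B or C had 3 calls with the mean WT allele as control for all libraries, the added ones being COSN123 against COSN12 and A.B.COSN123 against A.BOSN12.COSN123 (adjusted p = 0.0232 and 0.0358), and 0 to 1 without each library. The step from ∆AOSN.B.COSN123 to ∆A.B.COSN123 was -0.83 to -0.74 without each library, and with only clones that had a WT CAST allele, chosen after seeing the data, it was -0.91 (exact p = 0.0667). The value at Dppa2/4 beyond that at C, A or Z against B or C, was 0.16 with the mean WT allele as control (permutation p = 0.025), 0.01 among genotypes that lack all OSN sites of C (exact p = 0.945), and of opposite sign, -0.23, as a ratio to the lowest window (permutation p = 0.0361). The ratio has little meaning in genotypes without a delay at Dppa2/4, and the cause of these changes was not tested. In 21 further cases a value that was not called before or after changed sign.

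Replicate numbers of cultures did not pair the samples: over 45 pairs of 10 clones, the deviations of same-numbered cultures correlated between -0.11 and 0.08. With the number as a replicate block, 8 genotypes were called, with ∆A.BOSN12.BTSS.COSN123, ∆AOSN.B.COSN123 and ∆COSN123 lost. Steps of B or C had 0 calls (limma adjusted p = 0.295 for ∆BTSS.CTSS against ∆CTSS) and those of A or Z 1. Only some genotypes have numbered cultures, so the block is not separable from genotype. It set these genotypes at the level of culture 4 of ∆COSN123, and ∆B, for example, moved from -0.09 to 0.12. No conclusion is drawn from the lost calls. The called step of A joins genotypes that both have numbered cultures. Permuting within replicate numbers gave -0.79 for it (exact p = 0.00227). The deposited ratios carry no read counts, so the precision of a single library is known only from the spread between libraries.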
